A study of Mus musculus with 768 samples.

Results

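Pmp22-high myelinating Schwann cells of the mouse sciatic nerve at postnatal day 5 (P5) are described here from single-cell libraries. They were 221 of the 655 wells kept, in a series of 768 wells on 2 plates of 384. A well was kept when 1500 or more genes were detected and it was not one of the 8 corner wells. Kept wells with 5 or more reads in each of 3 or more of 10 cell cycle genes (Mki67, Top2a, Cdk1, Birc5, Ccnb1, Ccna2, Aurkb, Ube2c, Tpx2 and Cenpf) were set aside as cycling, which removed 57. Of the non-cycling wells, the Pmp22-high wells were those with at least 10 CPM (reads per 1000000 reads of the well) of Ncmap and at least 30000 CPM of Pmp22. The other 377 non-cycling wells consisted of 149 that passed for Ncmap but not for Pmp22 and 228 that did not pass for Ncmap.

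All wells shared 1 genotype and age, and the labels name no treatment. The mice were P0Cre -/+ : ReYFP Tg/+ : βAct-DsRed Tg/+ on the C57bl/6J background, so that a Cre driven by the P0 promoter of the Schwann cell lineage switched on eYFP. A cell was therefore in the data only if it had been labelled by that Cre and sorted as eYFP-positive. Each plate came from a male and a female mouse pooled and is 1 biological replicate, so the number of replicates in every comparison below is 2. Each well was 1 Smart-Seq2 library, a full-length protocol without molecular identifiers, and reads were therefore not independent molecules.

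Schwann cells that wrap a single large axon build myelin, a spiral of membrane that insulates the axon. Compact myelin is held together by adhesive and membrane-spanning proteins such as Pmp22 and Mal and by the cytoplasmic proteins Mbp and Pmp2. Non-compact regions at the inner wrap and beside the node hold Mag, gap junction and claudin proteins, and the outer surface is tied to the basal lamina by the dystroglycan complex through Prx and Drp2. Myelin membrane is rich in cholesterol and galactolipids, most of which the Schwann cell makes itself, and Egr2 with Sox10 drives many of the genes involved. Ncmap is a small membrane protein of non-compact myelin.

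The values that chose the wells are given first, as a description without a test. Pmp22 (chr11:63128982-63159547, plus strand, ENSMUSG00000018217, on GRCm38 as are all positions here) ranged from 31333 to 114893 CPM over the 108 Pmp22-high wells of replicate 1, with a median of 63683, and from 30776 to 108817 over the 113 of replicate 2, with a median of 65290.3. Ncmap (chr4:135369576-135398227, minus strand, ENSMUSG00000043924) had medians of 3980 and 4456 CPM in these wells, against 1579 and 1432 in the Ncmap-positive Pmp22-low wells. Among the non-cycling wells positive for Ncmap, 67 lay below 10000 CPM of Pmp22, 44 between 10000 and 20000, 38 between 20000 and 30000, 35 between 30000 and 40000, 59 between 40000 and 60000, 75 between 60000 and 80000, and 52 above. The threshold thus cut through a continuous range. No Ncmap-negative well and no cycling well reached 30000 CPM of Pmp22.

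**Figure D1:**
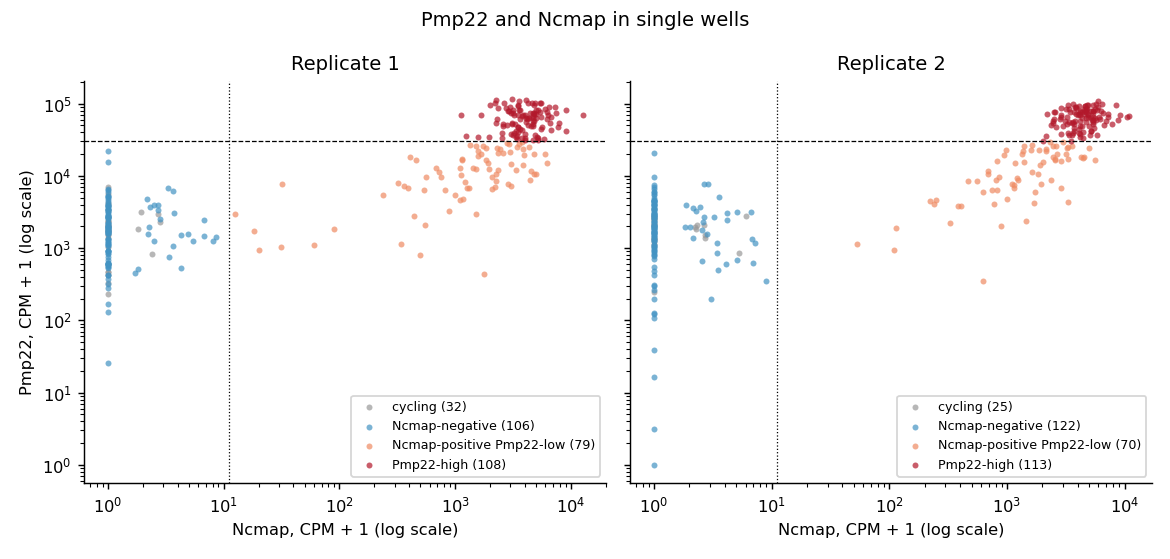
Pmp22 against Ncmap in each kept well of replicates 1 and 2, both in CPM + 1 on log scales, with the dashed line at the Pmp22 threshold and the dotted line at the Ncmap threshold. The Pmp22-high wells, 108 and 113, fill the upper right corner and run without a gap into the Ncmap-positive wells below the line.

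Wells on either side of the Pmp22 threshold were alike in several genes and apart in others. The reads of the 21 and 14 wells between 30000 and 40000 CPM of Pmp22, summed within each replicate, gave 45235 and 42275 CPM of Mbp and 2692 and 1833 CPM of Pmp2. The 20 and 18 wells between 20000 and 30000 CPM gave 32249 and 31831 CPM of Mbp and 1769 and 1044 CPM of Pmp2. Prx overlapped, at 2129 and 2643 CPM inside and 1850.0 and 2676 CPM outside, and so did Mag. H2-DMa stood at 82.5 and 93.0 CPM inside and at 0.141 and 31.9 CPM outside. Cntf overlapped, at 53.9 and 14.7 CPM inside and 0 and 18.6 CPM outside, and so did Ncam1.

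The Pmp22-high wells made up 33.2% of the kept wells in replicate 1 (exact Clopper-Pearson 95% interval 28.1 to 38.6) and 34.2% in replicate 2 (29.1 to 39.6), or 33.7% ± 0.715 (SD, n = 2). The share rests on where the threshold was put, and was 39.5% at 20000 CPM and 28.4% at 40000 CPM.

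These wells were deeper than the rest. Their median was 819461.5 reads in genes in replicate 1 and 719230 in replicate 2, against 492965 and 472284.5 in the other non-cycling wells. Median genes per well were 3724 and 4056, against 3062 and 3391. With every well reduced to 100000 reads, leaving out those that were shallower, of which 2 were Pmp22-high, the expected number of genes had medians of 3291 and 3524 in Pmp22-high wells, 2940 and 3348 in Ncmap-positive Pmp22-low wells and 2679 and 2941 in Ncmap-negative wells. The mitochondrial share of reads was 2.94% and 2.76% in the Pmp22-high wells and 2.92% and 2.78% in the other non-cycling wells. Wells of plate columns 8 and 16 had medians of 2057 and 1804 genes, against 2656 to 3749 in the other columns.

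The label was set beside 7 myelin genes that took no part in the choice of wells. They were listed with earlier results of these data known, so they are no independent check. Mbp, Mal, Prx and Mag each had 5 or more reads in 221 of 221 Pmp22-high wells and Cldn19 in 220, while Pmp2 reached that level in 193 and Drp2 in 155. Most of these genes did not set the wells apart by presence. Of the 149 Ncmap-positive Pmp22-low wells, 149 reached 5 reads of Mbp, 148 of Mal, 147 of Prx, 145 of Cldn19, 132 of Mag, 85 of Pmp2 and 11 of Drp2. Of the 228 Ncmap-negative wells, 194 (85.1%) held 3 or more of the 7, but only 13 reached 5 reads of Pmp2 and 0 of Drp2. Of 4 general Schwann cell genes, Sox10 reached 5 reads in 213 of the 221 wells, and at least 3 of the 4 (Sox10, S100b, Erbb3 and Cdh19) did so in 144 (65.2%). Of 6 endothelial markers, Pecam1, Cdh5, Tek and Emcn had 0 reads in all Pmp22-high wells, Cldn5 had 2 and 1 reads, and Kdr is described below. Of 7 immune markers, Ptprc, Lyz2, Adgre1, C1qa and Aif1 had 0 reads, and Csf1r and Cd68 reached 5 reads in 13 and 3 wells. No Pmp22-high well held 3 markers of endothelial cells, immune cells, pericytes, neurons or skeletal muscle, which allows a share of up to 1.36% each. For fibroblast markers (Dcn, Lum, Pdgfra, Col1a1, Col3a1 and Pi16) it was 3 wells, where Dcn and Lum reached 5 reads in 1 well each, Pdgfra in 2 wells and in none of the other classes, Pi16 in none, and Col1a1 and Col3a1, which most other wells also contained, in 182 and 108. No doublet caller was run.

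For all comparisons the reads of a class of wells were summed within a replicate, and levels are given as CPM of these sums after TMM scaling (edgeR's correction for composition), replicate 1 before replicate 2. A sum weights each well by its reads. Pmp22-high wells were set against all other non-cycling wells in 13668 genes, leaving out Pmp22, Ncmap and the 10 cycle genes. edgeR's quasi-likelihood test called 649 genes higher (4.75% of those tested) and 510 lower (3.73%), a total of 1159 (8.48%), at a Benjamini-Hochberg adjusted p under 0.05. The split moved with the scaling. Pmp22, Ncmap and the genes of the myelin lists took 15.5% and 15.3% of the reads of the Pmp22-high wells against 3.32% and 3.10% of the others. With library totals alone 427 genes were called higher (3.12%) and 1336 lower (9.77%), 1763 in all (12.9%), and the median log2 fold change over all genes tested moved from -0.02 to -0.38. The direction of a small change therefore depends on the scaling, and the fold changes below are on the TMM scale. The wells were chosen on Pmp22 and Ncmap in the same libraries, so these tests say which other genes differed along with that choice.

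Compact myelin genes were higher by the widest margin at the level of reads. Mbp, the basic protein that seals the cytoplasmic faces of the membrane, stood at 63871 and 61869.7 normalised CPM in Pmp22-high wells and at 10461 and 9679 in the other non-cycling wells (log2 fold change 2.64 ± 0.08 (SE), adjusted p = 1.3e-05). That is a 6.24-fold difference, and the summed replicates of the 2 groups did not overlap. Single wells did overlap. In replicate 2, 1 Pmp22-high well held 14894 CPM of Mbp and 1 Ncmap-positive Pmp22-low well 59928 CPM. Mal, a proteolipid of lipid rafts, stood at 6072 and 5785 against 1784 and 1643 (log2 fold change 1.79 ± 0.09 (SE), adjusted p = 7.8e-05). Pllp, a related proteolipid, stood at 3794 and 3579 against 1297 and 1134 (log2 fold change 1.60 ± 0.11 (SE), adjusted p = 0.00023). All 4 genes analysed from the compact myelin list were higher, beside 4.75% of all genes tested, and the median log2 fold change was 2.22, beside -0.02 over all genes. Together these 4 genes took 6.79% and 6.66% of the reads of the Pmp22-high wells, and 1.56% and 1.45% of the others.

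Pmp2, the fatty acid binding protein of peripheral myelin (chr3:10179851-10183929, minus strand, ENSMUSG00000052468), stood at 3570.2 and 3974 against 321 and 304 (log2 fold change 3.60 ± 0.11 (SE), adjusted p = 1.3e-05), a 12.1-fold difference. It was the most uneven of the 7 markers between Pmp22-high wells. The wells of replicate 1 ran from 0 to 23512 CPM around a median of 1347, and those of replicate 2 from 0 to 21244 around 1535. The coefficient of variation over wells was 139% and 141%, against 32.2% and 29% for Mbp, 30.8% and 26.7% for Mal and 54.7% and 47.3% for Mag. That of Drp2 was 123% and 112%. Gm37389, annotated over Pmp2 on the same strand, followed it at 3279.8 and 3639 against 292 and 278, and reads of the pair cannot be told apart here.

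Per kilobase of annotated exon, the order in Pmp22-high wells among the tested markers was Mbp (7542 and 7305 RPKM), Pmp2 (2536 and 2823), Mal (2186 and 2082), Prx (496 and 562), Mag (417 and 411), Cldn19 (320.2 and 352) and Drp2 (25.7 and 23.9). Every neighbouring pair in that order was further apart than its replicates. Exon length here is the union over all annotated transcripts, so a gene with long exons that these cells do not use is understated. Pmp22 itself, used in the choice, stood at 32279 and 31771 RPKM.

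Drp2, the dystrophin-related protein that Prx anchors below the outer Schwann cell membrane (chrX:134404551-134456573, plus strand, ENSMUSG00000000223), had the highest fold of the surface complex. It stood at 219.8 and 205 in Pmp22-high wells and 6.74 and 2.27 in the others (log2 fold change 5.56 ± 0.51 (SE), adjusted p = 0.00082). It had 5 or more reads in 71 and 84 Pmp22-high wells, in 11 of 149 Ncmap-positive Pmp22-low wells and in 0 of 228 Ncmap-negative wells, where 1 read was counted in all. Of the 71 and 84 Pmp22-high wells with Drp2, 61 and 71 also had 5 reads of Pmp2. Prx stood at 2768 and 3136 against 744 and 807 (log2 fold change 1.93 ± 0.11 (SE), adjusted p = 0.00012). Utrophin (Utrn), which like Drp2 binds dystroglycan, stood at 1765 and 1448 against 339.6 and 264 (log2 fold change 2.41 ± 0.17 (SE), adjusted p = 0.00024). Dag1, dystroglycan itself, was higher with a log2 fold change of 0.95 ± 0.15 (adjusted p = 0.0078). Sgce, a sarcoglycan, was higher too (0.86 ± 0.16, adjusted p = 0.018), but not with either other Pmp22 threshold or with library totals alone. In all, 5 of the 12 genes of this list were higher and 0 lower, beside 4.75% and 3.73% of all genes tested, with a median log2 fold change of 0.67. The laminin receptor integrins Itga6, Itgb1 and Itgb4 had fold changes between -0.19 and 0.48, and none of the 3 passed.

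Of 13 genes of non-compact myelin and its junctions, 9 were higher and 0 lower, beside 4.75% and 3.73% of all genes tested. The list's median log2 fold change was 1.21. Mag, the adhesion protein of the innermost wrap, stood at 1697 and 1674 against 555 and 476 (log2 fold change 1.71 ± 0.12 (SE), adjusted p = 0.00025). Cldn19, the claudin of the tight junctions, stood at 1365 and 1502 against 654 and 585 (log2 fold change 1.21 ± 0.12 (SE), adjusted p = 0.00098). Gjb1, connexin 32 of the gap junctions, stood at 174 and 196 against 39.7 and 40 (log2 fold change 2.21 ± 0.17 (SE), adjusted p = 0.0004). The genes with the highest folds were those of the node and paranode. Nfasc, neurofascin, stood at 107 and 135 against 9.23 and 9.47 (log2 fold change 3.70 ± 0.24 (SE), adjusted p = 0.0002). Gldn, gliomedin, which gathers sodium channels at the node, stood at 186 and 198 against 12.8 and 18.7 (log2 fold change 3.61 ± 0.24 (SE), adjusted p = 0.00021). Cnp, Cdh1, Gjc3 and Nrcam were also higher, and Cadm4, Jam3, Tjp1 and Pard3 did not pass. Cdh1 and Gjc3 were not called with library totals alone or with a Pmp22 threshold of 40000 CPM.

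**Figure D2:**
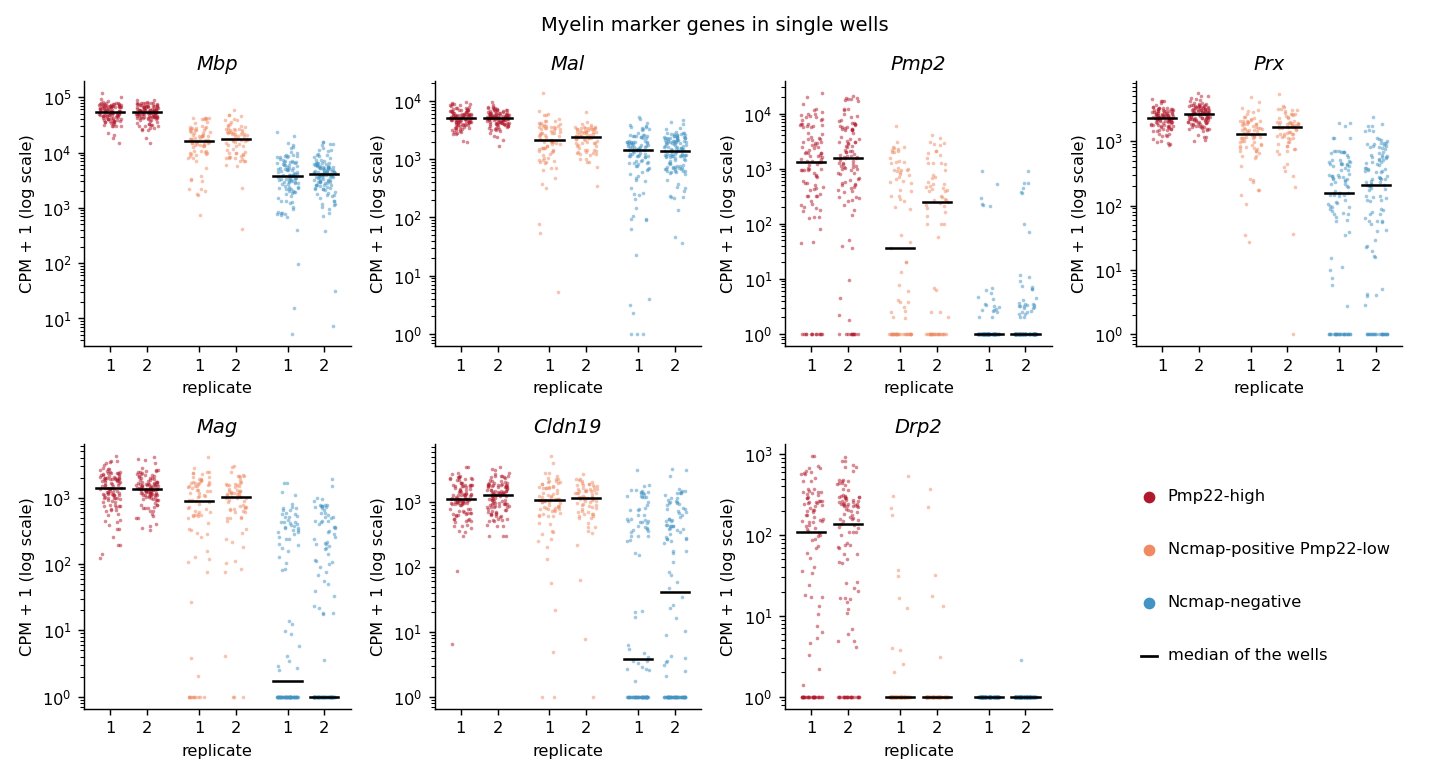
CPM + 1 on a log scale of 7 marker genes in each well, by class of wells and by replicate, with a line at the median of the wells. Mbp, Mal and Prx form tight bands in the Pmp22-high wells, Pmp2 and Drp2 spread from 0 upward, and Cldn19 has like medians in the Pmp22-high and the Ncmap-positive Pmp22-low wells.

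All 19 genes analysed from the cholesterol synthesis list were higher in Pmp22-high wells, beside 4.75% of all genes tested. Their median log2 fold change was 2.46, and with library totals alone 18 of 19 were still called (Ebp was not). Summed, they stood at 10485 and 10424 normalised CPM in Pmp22-high wells and at 2098 and 1956 in the other non-cycling wells. Hmgcs1, which makes the precursor HMG-CoA, stood at 827 and 822 against 104 and 100.2 (log2 fold change 3.02 ± 0.12 (SE), adjusted p = 2.4e-05). Lss, which closes the sterol rings, had the highest fold of the list at 272 and 228 against 22.3 and 19.5 (log2 fold change 3.58 ± 0.19 (SE), adjusted p = 7.8e-05). Fdps, which makes farnesyl diphosphate, had the highest level at 3118 and 3281 against 531 and 523 (6.07-fold, adjusted p = 2.4e-05). The lowest folds were those of Pmvk (0.90 ± 0.14) and Ebp (0.98 ± 0.18). Insig1, which holds the sterol sensor in the endoplasmic reticulum, was higher with 1.46 ± 0.27. The transcription factors of the pathway did not pass: Srebf2 stood at 61.8 and 76.5 against 47.4 and 37.2 (log2 fold change 0.71 ± 0.25 (SE), adjusted p = 0.13) and Srebf1 at 21.8 and 24.5 against 29.6 and 25.4 (log2 fold change -0.25 ± 0.32 (SE), adjusted p = 0.74).

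**Figure D3:**
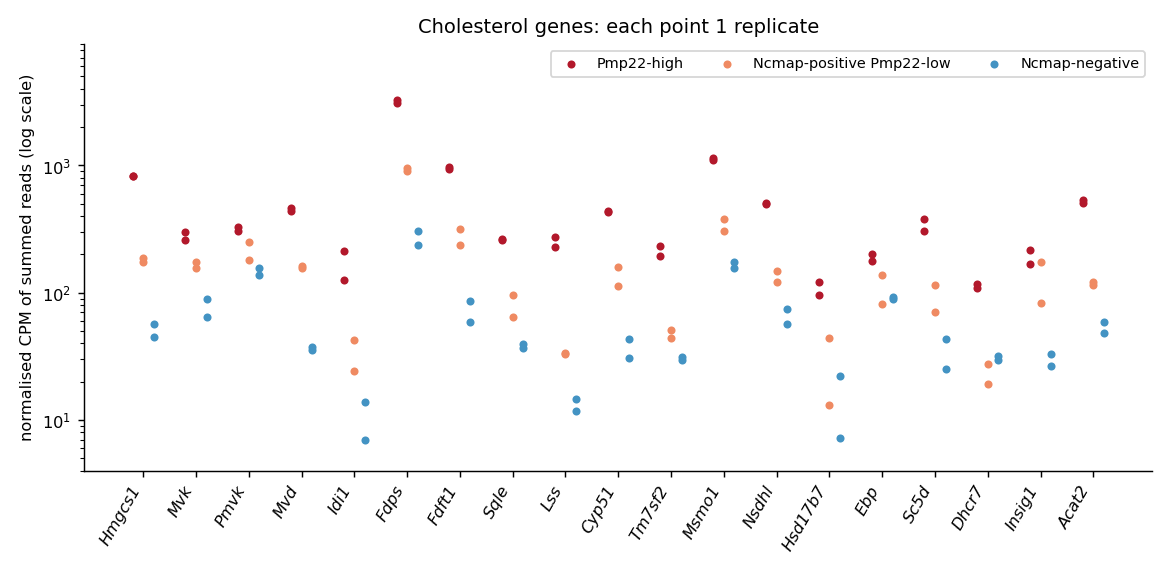
Normalised CPM of summed reads, log scale, for the 19 genes of the cholesterol synthesis list, with 1 point for each replicate and class of wells. Both Pmp22-high points lie above both Ncmap-negative points in every gene, and Ncmap-positive Pmp22-low wells fall between them in most, with Dhcr7 the exception in which they lie lowest.

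Promoters are shown for the 3 genes with the highest fold among those with a single window of 200 or more bases before the first annotated start, as the genes of this list moved together. RefSeq promoter windows on GRCm38.p6 matched 16 of the 19 genes. The letters CCAAT on either strand, the core bound by the factor NF-Y, were searched in the 250 bases before the start, and so was TCACNCCAC, the core of a sterol regulatory element. The windows shown stop before the first annotated start in RefSeq or GENCODE, whichever lies upstream. Matches are in capitals, and ATTGG is CCAAT read on the other strand.
Lss promoter, chr10:76531355-76531587, plus strand: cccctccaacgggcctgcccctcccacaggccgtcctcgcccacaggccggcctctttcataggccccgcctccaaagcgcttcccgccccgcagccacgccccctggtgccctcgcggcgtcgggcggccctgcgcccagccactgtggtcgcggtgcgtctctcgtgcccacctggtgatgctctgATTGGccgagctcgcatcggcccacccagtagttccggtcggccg
Hmgcs1 promoter, chr13:119690101-119690350, plus strand: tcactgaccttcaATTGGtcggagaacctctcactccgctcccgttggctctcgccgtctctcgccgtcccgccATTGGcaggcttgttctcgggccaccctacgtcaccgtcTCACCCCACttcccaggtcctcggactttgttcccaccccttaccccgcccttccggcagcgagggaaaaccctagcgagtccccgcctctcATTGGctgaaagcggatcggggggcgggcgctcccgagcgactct
Acat2 promoter, chr17:12960748-12960975, minus strand: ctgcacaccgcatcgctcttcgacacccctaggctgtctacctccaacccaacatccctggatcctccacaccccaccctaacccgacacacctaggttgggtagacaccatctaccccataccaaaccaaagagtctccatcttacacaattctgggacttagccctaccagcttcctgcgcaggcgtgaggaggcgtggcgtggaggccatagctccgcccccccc
Lss held 1 CCAAT, Hmgcs1 3 with 1 TCACNCCAC, and Acat2 neither. Over the 16 matched genes, 15 held CCAAT in at least 1 window, against 40.2% of the 9892 tested genes with a window. TCACNCCAC was in 1 of the 16, against 1.15%. A high share of CCAAT was not restricted to lists that rose: 12 of 13 matched genes of folding in the endoplasmic reticulum held it, and of the 14 tested genes of that list 0 were higher and 1 was lower. These matches describe the letters of the windows only.

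Genes for the other membrane lipids were higher too, 16 of 19 with 0 lower, beside 4.75% and 3.73% of all genes tested. The list's median log2 fold change was 1.41. Ugt8a, which adds galactose to ceramide to make the main myelin glycolipid, stood at 597 and 643 against 84 and 70.1 (log2 fold change 3.01 ± 0.15 (SE), adjusted p = 6.6e-05). Fa2h, which hydroxylates its fatty acid, stood at 814 and 806 against 209 and 188 (log2 fold change 2.03 ± 0.12 (SE), adjusted p = 0.00014). The desaturase Scd2 stood at 1139 and 1241 against 254 and 294 (log2 fold change 2.12 ± 0.13 (SE), adjusted p = 0.00014). Elovl1, which lengthens saturated chains, stood at 3003 and 2985 against 1067 and 898 (log2 fold change 1.61 ± 0.12 (SE), adjusted p = 0.00029), and Elovl6 was higher with 2.21 ± 0.16. Fasn, fatty acid synthase, had a smaller increase with 1.23 ± 0.18. Elovl5, the elongase of polyunsaturated chains, lay the other way without passing, at 4.99 and 2.53 against 15.5 and 19.9 (log2 fold change -2.24 ± 0.57 (SE), adjusted p = 0.057). It was called lower in 6 of 12 alternatives, DESeq2 and library totals alone among them, and also against the Ncmap-negative wells (log2 fold change -2.87 ± 0.68 (SE), adjusted p = 0.035). Sptlc1 and Fads2 did not pass either. Aacs, which activates acetoacetate for lipid synthesis and is on neither list, was among the 15 genes with the largest increase (228 and 202 against 19.1 and 37.5, log2 fold change 2.93 ± 0.32).

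**Figure D4:**
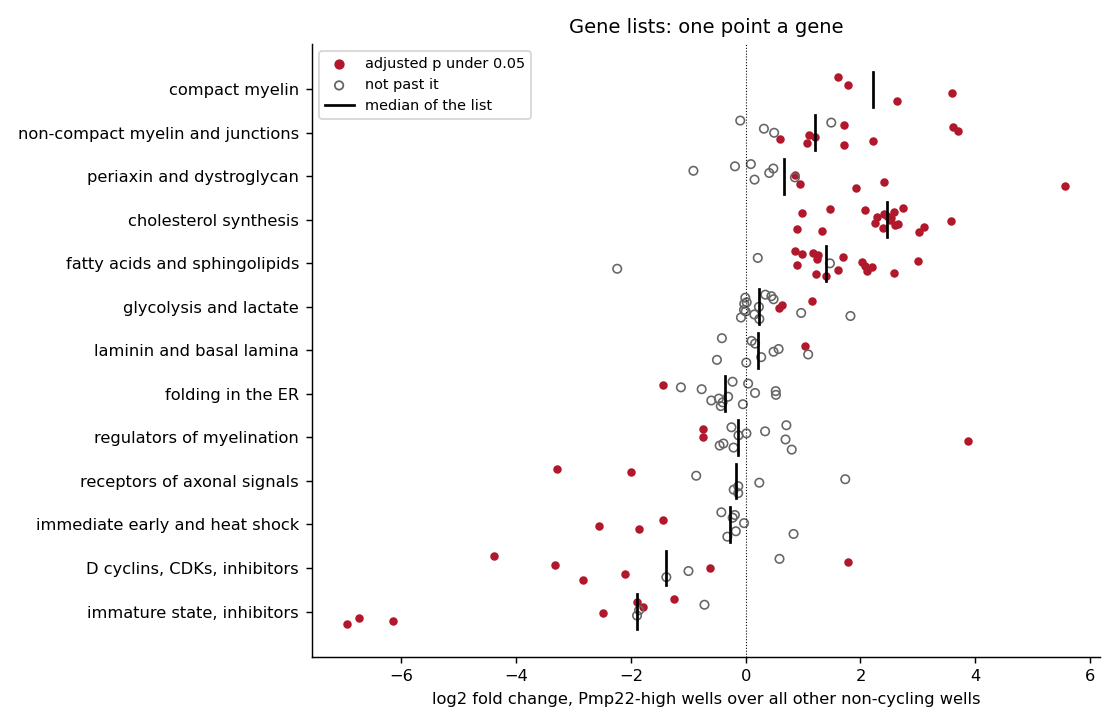
Log2 fold change of each tested gene of 13 lists in Pmp22-high wells over all other non-cycling wells, filled where the adjusted p was under 0.05, with a bar at the list's median. Every point of the cholesterol list is filled and above 0, while the lists of D cyclins and of the immature state lie mostly below 0.

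Among the 15 genes with the largest increase were several of no myelin or lipid list. These 15 were taken from called genes with 100 CPM or more on average over both groups before scaling. Cntf, the ciliary neurotrophic factor of myelinating Schwann cells (chr19:12763660-12765632, minus strand, ENSMUSG00000079415), led these with 260.1 and 336 against 7.94 and 11.4 (log2 fold change 4.95 ± 0.26 (SE), adjusted p = 7.8e-05), a 30.9-fold difference. It reached 5 reads in 37 and 64 of the 108 and 113 Pmp22-high wells, and in 7 and 5 wells of the other classes. Zfp91, a zinc finger gene whose span includes Cntf, stood at 297 and 361 against 23 and 38.5. Every Pmp22-high well with 5 reads of Cntf also had 5 reads of Zfp91, 37 and 64 wells, and the counts of the overlapping pair cannot be separated here. Kcnk1, a potassium leak channel, stood at 298 and 307 against 18.6 and 18.5 (log2 fold change 4.03 ± 0.16 (SE), adjusted p = 2.4e-05). Ecscr, a surface protein first described in endothelial cells, stood at 492 and 563 against 48.6 and 38.4 (log2 fold change 3.60 ± 0.18 (SE), adjusted p = 6.5e-05). Fam178b stood at 697 and 747 against 28.6 and 25.9 (4.73 ± 0.15). Sncg, gamma-synuclein, stood at 1166 and 1256 against 179.9 and 122 (8.02-fold, adjusted p = 0.0002), and Ogn, the matrix proteoglycan osteoglycin, at 572 and 637 against 51.9 and 53 (3.53 ± 0.14). The replicates of the 2 groups did not overlap in these genes. That adds no support, as they were picked for a large difference in the same direction in both replicates. Their mean of 100 CPM or more came mostly from the Pmp22-high wells.

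H2-DMa, a subunit of the chaperone that loads peptides on class II antigen-presenting molecules (chr17:34119541-34139101, plus strand, ENSMUSG00000037649), stood at 331 and 295 against 9.54 and 10.8 (log2 fold change 4.94 ± 0.19 (SE), adjusted p = 2.4e-05). Its partner H2-DMb1 stood at 165 and 169 against 5.63 and 0.0519 (adjusted p = 0.048), with 640 and 6 reads in the other wells. The call of H2-DMb1 was lost with RLE size factors, with a Pmp22 threshold of 20000 CPM and without the 5% of wells with the most genes, where the adjusted p reached 0.0775. H2-DMa reached 5 reads in 56 and 62 Pmp22-high wells and H2-DMb1 in 32 and 51, and both did in 24 and 35. The class II molecules themselves had few reads. H2-Aa and Cd74 had 0 reads in Pmp22-high wells. H2-Eb1 had 562 and 39 reads in Pmp22-high wells, with 5 or more in 3 and 1 wells, 0 and 0 in Ncmap-positive Pmp22-low wells and 235 and 302 in Ncmap-negative wells (log2 fold change 0.58 ± 1.34 (SE), adjusted p = 0.87 over all other non-cycling wells). H2-Ab1 stood at 8.81 and 13.1 against 14.4 and 5.86 (log2 fold change 0.11 ± 0.60 (SE), adjusted p = 0.95). In all 2 of the 8 tested genes of antigen presentation were higher and 1 lower, beside 4.75% and 3.73% of all genes tested. The list's median log2 fold change was 0.35. Of the class I genes, H2-D1 was lower (-1.70 ± 0.27, adjusted p = 0.0089) and H2-K1 and B2m did not pass. Brd2, whose span overlaps that of H2-DMa, differed by -0.21 ± 0.21 and did not pass.

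Kdr, a receptor for vascular endothelial growth factor, was counted in few wells but nearly only here. It had 5 or more reads in 11 and 11 Pmp22-high wells and in 0 of the other 377, with 1622 and 1561 reads against 0 and 2. No read was counted in the Ncmap-negative wells. With an assumed floor of 3 reads per replicate there, the ratio of summed reads was at least 390 in both replicates. Reads were not independent molecules and lay mostly in the 11 and 11 wells. This ratio therefore describes reads and sets no bound on the difference between cells or in the share of wells with Kdr. The fitted fold change of Kdr is left out because it depends on the prior count.

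Genes of the immature and repair states were lower. Of 13 such genes 10 passed the count filter, of which 7 were lower and 0 higher, beside 3.73% and 4.75% of all genes tested. The list's median log2 fold change was -1.89, beside -0.02 over all genes. Ncam1, an adhesion molecule of immature and non-myelinating Schwann cells, stood at 3.39 and 4.39 in Pmp22-high wells and 283 and 266 in the others (log2 fold change -6.14 ± 0.22 (SE), adjusted p = 2.4e-05). Ngfr, the p75 neurotrophin receptor, had 52 and 4 reads in Pmp22-high wells and stood at 0.601 and 0.0518 against 36.8 and 44.4 (adjusted p = 0.0056). L1cam stood at 0.405 and 0.0129 against 17 and 28.4 (adjusted p = 0.017). Any of the 3 reached 5 reads in 14 of 221 Pmp22-high wells (6.33%), in 61 of 149 Ncmap-positive Pmp22-low wells (40.9%) and in 208 of 228 Ncmap-negative wells (91.2%). Jun, a transcription factor that opposes myelination, stood at 168 and 73.2 against 593 and 752 (log2 fold change -2.48 ± 0.36 (SE), adjusted p = 0.0063), and Id2 at 331 and 227 against 921 and 1012 (log2 fold change -1.79 ± 0.19 (SE), adjusted p = 0.0014). Egr1 and Notch1 were lower too, Notch1 not with a Pmp22 threshold of 40000 CPM or without the 5% of wells with the most genes (adjusted p up to 0.064), while Sox2 (-1.86 ± 0.62), Cdh2 and Id4 did not pass.

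The 10 genes with the largest decrease, among called genes with 100 CPM or more on average, held receptors, matrix and secreted proteins. Ednrb, the endothelin receptor B, stood at 70.2 and 48.9 against 1813 and 1441 (log2 fold change -4.77 ± 0.22 (SE), adjusted p = 5.4e-05). Apoe, the lipid carrier, stood at 138 and 91.5 against 2252 and 1689 (log2 fold change -4.10 ± 0.24 (SE), adjusted p = 0.00013). Postn, the matrix protein periostin, stood at 2.61 and 4.56 against 162 and 198 (-5.65 ± 0.34), and Sparcl1, another matrix protein, at 11.9 and 15 against 354 and 397 (-4.81 ± 0.20). Entpd2, a surface enzyme that degrades ATP, stood at 2.91 and 10.9 against 297 and 464 (-5.78 ± 0.63). Rarres2, chemerin, and Smim5 were lower with log2 fold changes of -4.03 ± 0.34 and -5.13 ± 0.48. Lgals3, galectin-3, had 13 and 3 reads in Pmp22-high wells and 2381 and 46331 in the others, where 37403 of the reads of replicate 2 lay in Ncmap-positive Pmp22-low wells of which 1 alone reached 5 reads. It passed (adjusted p = 0.0073), and 8 Ncmap-negative wells held 5 or more reads of it. The collagen genes Col1a1 and Col3a1 were also lower, with -1.60 ± 0.13 and -2.70 ± 0.14.

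Genes of the D cyclins, their kinases and the kinase inhibitors were mostly lower, and 1 inhibitor was higher. Wells set aside as cycling were left out of both groups. That rule needs reads of several of the listed cell cycle genes, so dividing cells with few such reads can remain. Whether such cells contribute to these differences was not tested. Of 9 genes tested, 5 were lower and 1 higher, beside 3.73% and 4.75% of all genes tested. The list's median log2 fold change was -1.38. Ccnd1, cyclin D1, stood at 96.4 and 85.9 against 637 and 657 (log2 fold change -2.83 ± 0.14 (SE), adjusted p = 6e-05). Ccnd3, Cdk4 and Cdk6 were lower with -2.10 ± 0.25, -0.62 ± 0.12 and -3.31 ± 0.35. Cdkn1c, the inhibitor p57, was lower, at 104 and 55.5 against 2173 and 1169 (log2 fold change -4.39 ± 0.40 (SE), adjusted p = 0.00076). Cdkn1a, the inhibitor p21, was higher, at 2919 and 2671 against 896 and 729 (log2 fold change 1.78 ± 0.13 (SE), adjusted p = 0.0003). Cdkn1b, the inhibitor p27, did not pass (log2 fold change 0.59 ± 0.30 (SE), adjusted p = 0.3).

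Most regulators of myelination did not pass between Pmp22-high wells and the rest. Egr2, the transcription factor that switches myelination on, stood at 285 and 182 against 146 and 122 (log2 fold change 0.80 ± 0.23 (SE), adjusted p = 0.08). Sox10, which marks the whole lineage, stood at 203 and 213 against 236 and 246 (log2 fold change -0.21 ± 0.13 (SE), adjusted p = 0.43), and Pou3f1, which precedes Egr2, at 104 and 80.7 against 118 and 135 (log2 fold change -0.45 ± 0.19 (SE), adjusted p = 0.22). Of 13 tested, Nab1, a partner of Egr2, was higher at 38.7 and 18.8 against 0.747 and 3.16 (log2 fold change 3.88 ± 0.78 (SE), adjusted p = 0.025), and Zeb2 and Wwtr1 were lower with -0.74 ± 0.16 and -0.75 ± 0.18. The median over the list was -0.12. Its 1 higher and 2 lower of 13 stood beside 4.75% and 3.73% of all genes tested. DESeq2 called 3 genes of the list higher and 2 lower, beside 1241 higher and 1180 lower over all genes. Nab1 was not called with a minimum of 2500 genes or a Pmp22 threshold of 40000 CPM, and Zeb2 and Wwtr1 were not called without the 5% of wells with the most genes. Among receptors of axonal signals, Erbb2, Erbb3 and Adgrg6 had fold changes between -0.21 and -0.13 and did not pass, and Lpar1 and Cadm1 were lower with -1.99 ± 0.17 and -3.28 ± 0.18. These were 2 of 8, beside 3.73% of all genes tested called lower, and the list's median was -0.17.

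Other lists differed in few members. Over all genes tested, 4.75% were higher and 3.73% lower, so 1 call in a short list says little about that list. Of 17 genes of glycolysis and lactate, Eno1 (1.16 ± 0.10), Gapdh (0.63 ± 0.12) and Aldoa (0.58 ± 0.12) were higher and 0 lower, and of these Eno1 alone was called with library totals alone. The list's median was 0.24. Of 10 genes of laminin and the basal lamina, Col4a2 was higher (1.04 ± 0.17) and the median was 0.22. Of 14 genes of folding in the endoplasmic reticulum, Sdf2l1 was lower (-1.43 ± 0.32) and the median was -0.35. Of 10 immediate early and heat shock genes, Atf3, Ier2 and Nr4a1 were lower, with Nr4a1 at 338 and 289.7 against 789 and 913 (log2 fold change -1.44 ± 0.14 (SE), adjusted p = 0.00096), and Fos at 3942 and 3865 against 4671 and 5067 did not pass (log2 fold change -0.32 ± 0.09 (SE), adjusted p = 0.074). The median of these 10 was -0.27.

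The Ncmap-positive Pmp22-low wells were the class nearest to the Pmp22-high wells. In a fit of all 3 classes, 135 of 13628 genes were higher (0.991%) and 117 lower (0.859%) in Pmp22-high wells than in these, 252 in all (1.85%). Beside this, 663 were higher (4.86%) and 505 lower (3.71%) than in Ncmap-negative wells, 1168 in all (8.57%). With library totals alone 95 genes were higher (0.697%) and 278 lower (2.04%) than in the Ncmap-positive Pmp22-low wells, 373 in all (2.74%). Against the Ncmap-negative wells 481 were higher (3.53%) and 1120 lower (8.22%), 1601 in all (11.7%). The 2 comparisons share the Pmp22-high sums. The marker genes passed again against the Ncmap-positive Pmp22-low wells in 6 of 7, and in 5 of 7 with library totals alone. Mbp stood at 19449 and 18999.7 in those wells (log2 fold change 1.71 ± 0.06 (SE), adjusted p = 1e-05) and at 4071 and 4127 in Ncmap-negative wells (log2 fold change 3.94 ± 0.06 (SE), adjusted p = 2e-08). Pmp2 stood at 730.3 and 760.3 (log2 fold change 2.34 ± 0.12 (SE), adjusted p = 9.2e-05) and at 21 and 24 (log2 fold change 7.39 ± 0.15 (SE), adjusted p = 8e-08). Cldn19 did not pass, at 1130.4 and 1054 in Ncmap-positive Pmp22-low wells (log2 fold change 0.39 ± 0.12 (SE), adjusted p = 0.16), and at 321 and 309 in Ncmap-negative wells it did (log2 fold change 2.19 ± 0.12 (SE), adjusted p = 1.9e-05). Mag had a log2 fold change of 0.74 ± 0.12 and 3.15 ± 0.13 in the 2 comparisons.

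The cholesterol list was higher than in Ncmap-positive Pmp22-low wells in 14 of 19 genes, with a median log2 fold change of 1.80, and than in Ncmap-negative wells in 19 of 19, with 2.94. Lss stood at 33.8 and 32.9 in Ncmap-positive Pmp22-low wells (log2 fold change 2.91 ± 0.24 (SE), adjusted p = 0.00085) and at 14.7 and 11.8 in Ncmap-negative wells (log2 fold change 4.24 ± 0.25 (SE), adjusted p = 2.6e-05). The 5 that did not pass in the first comparison were Mvk, Pmvk, Hsd17b7, Ebp and Insig1, with Insig1 at 174 and 83.8 (log2 fold change 0.58 ± 0.33 (SE), adjusted p = 0.49). Of the fatty acid and sphingolipid list 10 of 19 passed against the Ncmap-positive Pmp22-low wells. Of the non-compact and junction list only Mag and Nfasc did. Over all genes tested, 0.991% were higher than in those wells, and 0.697% with library totals alone. With library totals alone 14 genes of the cholesterol list were called higher than in those wells. The fatty acid and sphingolipid list then had 7 such genes, and the non-compact and junction list 1.

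Among called genes, the largest increases over Ncmap-positive Pmp22-low wells were those of Zfp91, Ogn, Ccn1, Gm37389, Pmp2, Pea15a, Hmgcs1 and Ugt8a. Only genes with 100 CPM or more on average over the 3 non-cycling classes were ranked. Pea15a, a phosphoprotein that binds ERK kinases, stood at 1426 and 1322 in Pmp22-high wells, 297 and 255 in Ncmap-positive Pmp22-low wells (log2 fold change 2.31 ± 0.14 (SE), adjusted p = 0.00016) and 281 and 298 in Ncmap-negative wells, so that both other classes lay at like levels. Ccn1, a matrix-associated immediate early protein, did not order the classes in this way. It stood at 1076 and 690.1, 191 and 119.7 (log2 fold change 2.51 ± 0.27 (SE), adjusted p = 0.0029) and 1699.7 and 1894 (log2 fold change -1.02 ± 0.25 (SE), adjusted p = 0.044) in the same order of classes, lowest in the middle class. Cntf and H2-DMa, which lie below that level, had larger increases and were at 14.2 and 15.1 and at 6.94 and 13.4 in Ncmap-positive Pmp22-low wells (log2 fold change 4.35 ± 0.45 and 4.94 ± 0.36). Their levels in Ncmap-negative wells were 3.51 and 9.45 and 12 and 9.58. Fam178b, Kcnk1 and Ecscr, among the 15 largest increases of the first comparison, did not pass against the Ncmap-positive Pmp22-low wells (adjusted p = 0.057, 0.29 and 0.37). They stood there at 36.4 and 63.5, 39.1 and 48.5 and 90.8 and 100.4. Their log2 fold changes were 3.85 ± 0.80, 2.79 ± 1.08 and 2.46 ± 1.14 (SE), larger than that of Pmp2. The SE came from a fit of all 3 classes. In Ncmap-negative wells these genes had 1500 and 197, 238 and 2, and 1155 and 22 reads. Not passing is therefore no sign of like levels. Fosb, an immediate early gene, stood at 129.7 and 107 in Pmp22-high wells and 22.4 and 38.6 in these (log2 fold change 1.96 ± 0.31 (SE), adjusted p = 0.019).

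Among called genes at that level, the largest decreases from Ncmap-positive Pmp22-low to Pmp22-high wells were those of Ntm, Cdkn1c, Ncam1, S100a4, Ednrb, Gm42674, Apoe and Smim5. Ntm, the neural adhesion protein neurotrimin, had 5 and 4 reads in Pmp22-high wells and 4965 and 3663 in Ncmap-positive Pmp22-low wells (adjusted p = 8.9e-05), where 30 of 149 wells reached 5 reads and no Pmp22-high well did. Cdkn1c was at its highest in the middle class, at 2998 and 1898 (log2 fold change -4.94 ± 0.47 (SE), adjusted p = 0.0018) beside 1651 and 752 in Ncmap-negative wells. S100a4, a calcium-binding protein, was likewise highest there, at 311 and 550.3 against 24.5 and 56.8 in Pmp22-high wells (log2 fold change -3.41 ± 0.43 (SE), adjusted p = 0.007). Gm42674 overlaps S100a4 and followed it. Ednrb stood at 697 and 418 (log2 fold change -3.23 ± 0.28 (SE), adjusted p = 0.0012) and Apoe at 1203 and 769 (log2 fold change -3.10 ± 0.28 (SE), adjusted p = 0.0014).

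Egr2 stood at 229.6 and 171 in Ncmap-positive Pmp22-low wells, where it did not pass (log2 fold change 0.22 ± 0.25 (SE), adjusted p = 0.78), and at 89 and 95.9 in Ncmap-negative wells, where it did (log2 fold change 1.34 ± 0.25 (SE), adjusted p = 0.013). Cdkn1a was called higher than in both classes, which stood at 1867 and 1667 (log2 fold change 0.66 ± 0.13 (SE), adjusted p = 0.042) and 194 and 161 (log2 fold change 3.98 ± 0.14 (SE), adjusted p = 3.7e-06). The call over the Ncmap-positive Pmp22-low wells was lost with library totals alone.

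Within the Pmp22-high wells Pmp22 still varied, and other genes varied with it. Spearman correlations are given across the 108 and 113 wells of each replicate, with each other gene as its share of the reads that were not Pmp22. The wells of a replicate share a plate, Pmp22 had a correlation of 0.19 and 0.11 with reads per well, and a share of reads is bound to the other shares, so these values are descriptions. Of 1800 genes with 100 CPM or more, Mbp had the highest correlation in the lower of the 2 replicates (0.65 and 0.57), followed by Mal (0.61 and 0.54). Cntf (0.53 and 0.47), Ecscr (0.51 and 0.43), Drp2 (0.45 and 0.39) and Cers2, a ceramide synthase (0.46 and 0.37), were also positive. Sema5a (0.57 and 0.50) and Cd9 (0.53 and 0.45) were chosen after their values were seen. Sema5a, a semaphorin, had 10643 and 9751 reads in Pmp22-high wells and 1 and 60 in the other non-cycling wells, with 5 or more reads in 104 of 221 and 3 of 149 wells of the first classes and in no Ncmap-negative well. Cd9, a tetraspanin, stood at 12866 and 13716 against 2372 and 2017 in the same comparison. Mag (-0.08 and -0.12) and Cldn19 (-0.05 and -0.14) were weakly negative. The median over the cholesterol list was 0.10 and 0.05, beside 0.00 and -0.01 over all 1800 genes.

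The lowest correlation with Pmp22 was that of Csrp2, a LIM domain protein, at -0.65 and -0.57, and it was chosen after its values were seen. Csrp2 was nevertheless higher in Pmp22-high wells than in the others, at 2760.3 and 2531 against 1271 and 1151 (log2 fold change 1.13 ± 0.11 (SE), adjusted p = 0.00089). The ribosomal protein genes, a set also chosen after values were seen, were negative in both replicates in 72 of 74 genes, beside 617 of all 1800, with medians of -0.24 and -0.27. Their summed share of the reads other than Pmp22 ran from 1.90% to 10.3% over the wells of replicate 1 and from 1.85% to 6.86% in replicate 2. Its correlation with Pmp22 was -0.52 and -0.61.

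**Figure D5:**
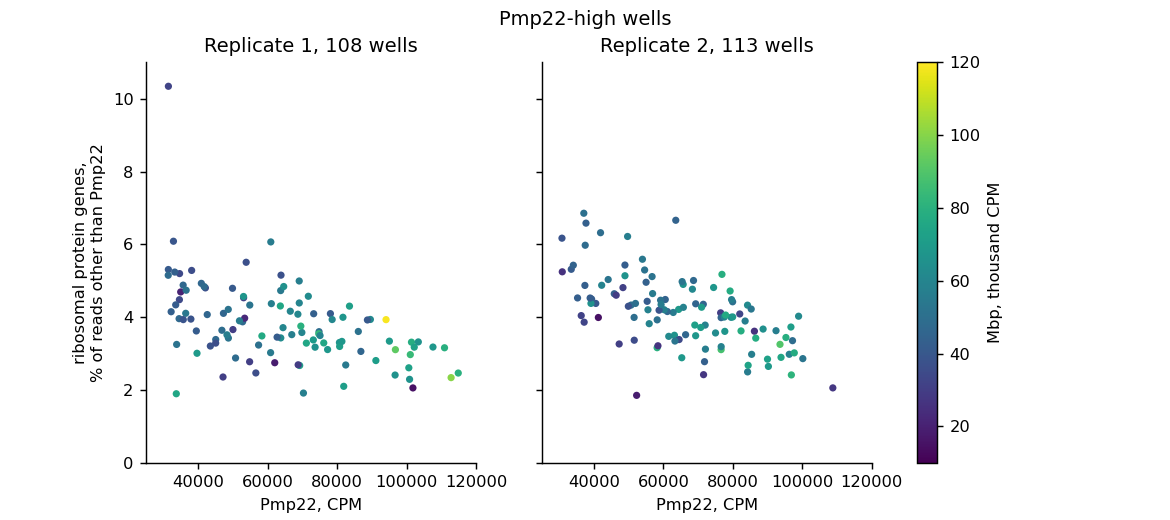
Share of ribosomal protein genes among reads other than Pmp22 (%) against Pmp22 (CPM) in each Pmp22-high well of replicates 1 and 2, coloured by Mbp (CPM, with the scale on the colour bar). The share falls as Pmp22 rises in both replicates, with rank correlations of -0.52 and -0.61, and Mbp rises along the same axis.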

How the data were processed

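The authors sorted single eYFP-positive cells into 384-well plates, made Smart-Seq2 libraries and deposited whole-number read counts per Ensembl gene and well. The submitters' notes name bcl2fastq, STAR 2.6.1c, featureCounts and GRCm38.p5. The counts were used as deposited: 25700 genes, of which 25587 matched a symbol, with 169 to 2495101 reads in genes per well. Symbols, coordinates and exon lengths came from GENCODE vM21 (GRCm38.p6). Reads of each class of wells were summed per replicate (87240630 to 101576863 reads for Pmp22-high and other non-cycling sums) and tested with edgeR 4.0.16 (TMM, filterByExpr, quasi-likelihood, Benjamini-Hochberg over all genes tested, threshold 0.05). On simulated counts for the main comparison, over 14001 genes, 90% of 50 genes changed by a log2 of 2 were recovered. There 13 of 208 calls were false. For the comparison with Ncmap-positive Pmp22-low wells 80% of 50 such genes were recovered, and 12 of 199 calls were false. The changed genes were drawn only from those above a minimum level, with as many raised as lowered. The larger share of myelin reads in Pmp22-high wells was not simulated. These rates therefore do not cover genes at low levels or that shift. Named genes are the 15 largest increases and 10 largest decreases over all other non-cycling wells, and 8 each way over Ncmap-positive Pmp22-low wells. All of these were called, with 100 CPM or more on average and 1 direction in both replicates. The members of the lists are named too. Wells, genes and lists were chosen with earlier results of these data known. A list entry misspelled as Plllp was read as Pllp, and some genes are not reported here. Counting was taken as unstranded, so overlapping genes are uncertain. Replicate numbers pair the sums because a number is a plate of the same pooled animals; deviations of like-numbered sums correlated at 0.14 to 0.15 over 1921 genes. Alternatives were DESeq2 1.42.0, RLE, no filter, a replicate block, other gene minimums and Pmp22 thresholds, thinning to 100000 reads, and, added after seeing the data, library totals alone and leaving out columns 8 and 16 or the wells with the most genes. Intervals cover counting error only. Each SE of a fold change is its absolute log2 value divided by the square root of the quasi-likelihood F. It was not estimated separately from the replicates.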

Additional observations from a re-analysis of the deposited data

Results flagged for a closer look

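Among the 105 wells that fell short of the minimum of 1500 genes and were not analysed, 10 passed both thresholds, with 10 CPM of Ncmap and 30000 CPM of Pmp22. They held 351 to 1463 genes and 455 to 503605 reads. They were flagged because they lie outside every comparison above, and were left out of all of them. In the shallowest of them a single read of Ncmap is above 10 CPM.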

How the results depend on the processing

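The 12 alternatives to the fit were followed for 115 calls (104 genes, some in both comparisons that named genes). These were the named genes of both comparisons and the list genes called against all other non-cycling wells. List genes called only against Ncmap-positive Pmp22-low or Ncmap-negative wells were not among them. Of the 115 calls, 101 kept their direction and stayed called under all 12 alternatives, and none changed direction. The calls lost in at least 1 alternative were those of Acaca, Aldoa, Cdh1, Ebp, Fads1, Gapdh, Gjc3, H2-DMb1, Nab1, Notch1, Sdf2l1, Sgce, Wwtr1 and Zeb2. A Pmp22 threshold of 40000 CPM lost 9, library totals alone 7, leaving out the 5% of wells with the most genes 7, a threshold of 20000 CPM 5, RLE size factors 1 (H2-DMb1) and a minimum of 2500 genes 1 (Nab1).

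DESeq2 called 2421 genes against all other non-cycling wells, 1154 against Ncmap-positive Pmp22-low wells and 2369 against Ncmap-negative wells, and library totals alone called 1763 in the first. Without the filter on low counts 856 and 1886 genes were called against the Ncmap-positive Pmp22-low and the Ncmap-negative wells, and with wells thinned to 100000 reads 433 against the former. The replicate block, which follows the pairing of the sums, called 1416, 359 and 1239 genes and changed no call of a named gene. The share of Pmp22-high wells was 35.9% with a minimum of 2500 genes, 39.5% and 28.4% with thresholds of 20000 and 40000 CPM of Pmp22, and 33.2% to 34.2% in single replicates. The cause of these shifts was not tested. With 2 replicates, the ratio within 1 replicate carries no test: it moved beyond the error in 3 and 4 of the 115 calls.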

Other observations

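The ribosomal protein genes, a set chosen after values were seen, were also lower in the Pmp22-high wells as sums. They took 3.38% and 3.82% of all reads, against 5.63% and 6.32% in the other non-cycling wells. As a share of reads outside the myelin genes, the medians over wells were 4.07% and 4.67% in Pmp22-high wells, 5.90% and 6.85% in Ncmap-positive Pmp22-low wells and 5.45% and 6.52% in Ncmap-negative wells. Of 76 tested, 12 were lower and 0 higher with TMM scaling, beside 3.73% and 4.75% of all genes tested. The set's median log2 fold change was -0.37. With library totals alone 59 were lower, beside 9.77% of all genes tested.

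Of 6 pericyte and smooth muscle markers, Pdgfrb reached 5 reads in 78 of 221 Pmp22-high wells, 41 of 149 Ncmap-positive Pmp22-low wells and 10 of 228 Ncmap-negative wells (45.8 and 50.2 against 21.2 and 19.7 in all other non-cycling wells, log2 fold change 1.23 ± 0.28 (SE), adjusted p = 0.038). Its call was lost with library totals alone (adjusted p = 0.089), with a Pmp22 threshold of 40000 CPM and without the 5% of wells with the most genes. Tagln reached 5 reads in 50, 7 and 11 wells of the same classes (16 and 22.6 against 9.46 and 1.84, log2 fold change 1.77 ± 0.76 (SE), adjusted p = 0.22). Cspg4 did so in 12, 14 and 23 wells and Acta2 in 1 Pmp22-high well, and Rgs5 and Myh11 had 0 reads in the Pmp22-high wells.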
